A study of Mus musculus with 48 samples.

Results

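Protein processing in the endoplasmic reticulum (ER) and the unfolded protein response were followed in mouse liver through 50 genes, out of 22029 genes with a tested probe. The 50 genes were taken by name from the annotation of the array, as a list chosen with earlier results of these data known, and all 50 passed the filter on dim probes. Each gene is given by its brightest probe. Its level is a quantile-normalised log2 signal, on which 1 unit is a doubling, and levels are compared between groups of mice and not between genes. The genes comprise 10 chaperones and co-chaperones, 7 glycoprotein folding and disulfide exchange enzymes, 11 genes of ER-associated degradation, 8 sensors and transcription factors of the response, 7 genes of the translocon and its associated complex, 5 subunits of the oligosaccharyltransferase and 2 of the COPII coat.

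Liver RNA was hybridised on 48 Agilent arrays, 1 array per male mouse, with 6 groups of 8 mice. The genotypes were wild-type (WT), a germline deletion of Pparα in every tissue (written Pparα-/-) and a deletion restricted to hepatocytes (written Pparα hep-/-). Mice of each genotype received a low-fat control diet (CTRL) or a high-fat diet (HFD) containing 60% fat. According to the labels the diets lasted 12 weeks and the mice were 20 weeks old, whereas the methods of the study give a shorter feeding time. All mice were housed at thermoneutrality and killed in the fed state. Pparα hep-/- mice carry floxed Pparα alleles and a Cre transgene under the albumin promoter, so that Pparα is removed from hepatocytes and kept in the other cells of the liver. WT mice were purchased and both deletions were bred in the facility of the study, so that genotype and origin cannot be told apart. PPARα is a nuclear receptor activated by fatty acids.

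Secreted and membrane proteins enter the ER through the translocon, are glycosylated, are folded by chaperones and oxidoreductases, and either leave in COPII vesicles or are returned to the cytosol for degradation. When unfolded proteins build up, the ER membrane sensors IRE1, PERK and ATF6 raise the expression of chaperones and degradation factors through the transcription factors XBP1, ATF4 and cleaved ATF6. Hepatocytes secrete most plasma proteins and depend on this machinery, which feeding also regulates.

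Between 28234 and 38217 of the 59305 spots were well above background on an array, and no spot was saturated. The array weights that limma estimated ran from 0.189 to 2.53, and the lowest were those of a Pparα hep-/- CTRL mouse (0.189) and a WT CTRL mouse (0.208). The brightest Pparα probe gave -0.42 on the log2 scale in Pparα hep-/- CTRL mice against WT CTRL mice (adjusted p = 0.000887) and -0.65 in Pparα-/- CTRL mice (adjusted p = 1.1e-06). The other tested Pparα probe gave -0.1 (adjusted p = 0.454) and -1.11 (adjusted p = 5.27e-13) in these comparisons. Whether either probe lies inside the deleted stretch is not given in the sources used here, so these values do not check the labels. All 6 listed hepatocyte markers were well above background in every group. In whole liver, fewer cells of a type and less RNA per cell cannot be told apart.

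HFD feeding lowered most of these genes in WT mice. A gene was called when its adjusted p in limma was at most 0.05, with p adjusted over all tested probes. Of the 50 genes, 37 were lower and 0 higher in HFD than in CTRL WT mice, while 10.1% of all genes were called lower and 9.32% higher. The count of lower genes was 29 without array weights, and 29 and 8 within the first and the other wash batch. The median log2 fold change of the 50 genes was -0.36, against 0 for all genes. In Pparα hep-/- mice 14 genes were lower and 2 higher on HFD (all genes, 11.8% lower and 10.7% higher) with a median of -0.14. That split became 8 lower and 0 higher without array weights, and 26 lower and 1 higher with the processed signal scaled to the 75th percentile, where WT mice had 34 lower and Pparα-/- mice 32. In Pparα-/- mice 28 genes were lower and 1 higher (all genes, 12.6% lower and 13.8% higher) with a median of -0.23. By their calls, 13 genes were lower on HFD in every genotype: Hspa5, Hsp90b1, Hyou1, Dnajb11, Manf, Uggt1, Edem1, Edem2, Sel1l, Sec61a1, Ssr2, Stt3a and Rpn1. Without array weights 6 of these 13 were lower in every genotype (Manf, Uggt1, Edem2, Sec61a1, Ssr2 and Stt3a), and 2 within either wash batch. With the processed signal scaled to the 75th percentile 21 genes were lower in every genotype, 12 of these 13 among them. The calls of Edem1 were lost in 8 of 15 alternatives in WT mice and in 7 in Pparα-/- mice, and that of Dnajb11 in 8 in Pparα hep-/- mice.

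Pparα hep-/- mice were also compared with WT mice on CTRL diet. There, 34 genes were lower and 1 higher, Trib3 (all genes, 12.9% lower and 12.3% higher), with a median of -0.32. Without array weights 23 genes were lower and 0 higher, and 17 and 12 were lower within the wash batches. Pparα-/- mice differed less from WT mice on CTRL diet, with 16 genes lower and 4 higher (all genes, 18.4% lower and 16.9% higher) and a median of -0.11. That median was -0.01 within one wash batch, where 4 genes were lower and 2 higher, while 16 were lower and 0 higher within the other. The direct comparison of the deletions on CTRL diet gave 20 genes higher and 2 lower in Pparα-/- mice (all genes, 13.2% higher and 13.4% lower), or 12 higher and 2 lower with the processed signal and 3 higher and 2 lower within one wash batch and 14 higher and 1 lower within the other. Of the markers of other cells, Jchain (1.5, plasma cells), Mpo (1.36, neutrophils) and Stab2 (0.66, endothelium) were higher there and Elane (-0.53, neutrophils), Lrat (-0.61, stellate cells) and the hepatocyte gene Apoa1 (-0.26) lower, and their part was not tested. The comparisons with WT CTRL mice and the HFD response in WT mice share the same 8 WT CTRL mice, so they are not independent of each other.

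On HFD fewer genes separated Pparα hep-/- from WT mice than on CTRL diet. Pparα hep-/- mice had 6 genes higher and 5 lower than WT mice (all genes, 14.6% higher and 14% lower), or 1 higher and 3 lower without array weights. Pparα-/- mice had 13 higher and 9 lower than WT mice, 22 calls against 20 on CTRL diet (all genes, 24.1% higher and 23.7% lower), or 11 higher and 4 lower without array weights. With the processed signal scaled to the 75th percentile in place of quantile normalisation, these splits became 3 higher and 16 lower in Pparα hep-/- mice and 8 higher and 12 lower in Pparα-/- mice, so no direction is given for the set in either comparison. Against Pparα hep-/- mice, Pparα-/- mice on HFD had 15 genes higher and 3 lower (all genes, 16.9% higher and 15% lower). Without array weights 7 were higher and 2 lower, and within the wash batches 6 and 9 were higher and 2 lower in each. In that comparison 3 of 6 pancreatic acinar markers were also higher, Cela2a (1.25), Cel (0.39) and Cela3b (0.22), as were 2 of 5 endothelial, 2 of 7 macrophage, 2 of 6 neutrophil and 1 of 6 plasma and B cell markers, while 1 macrophage, 1 neutrophil, 1 hepatocyte and 2 bile duct markers were lower. The part of these markers was not tested.

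**Figure D1:**
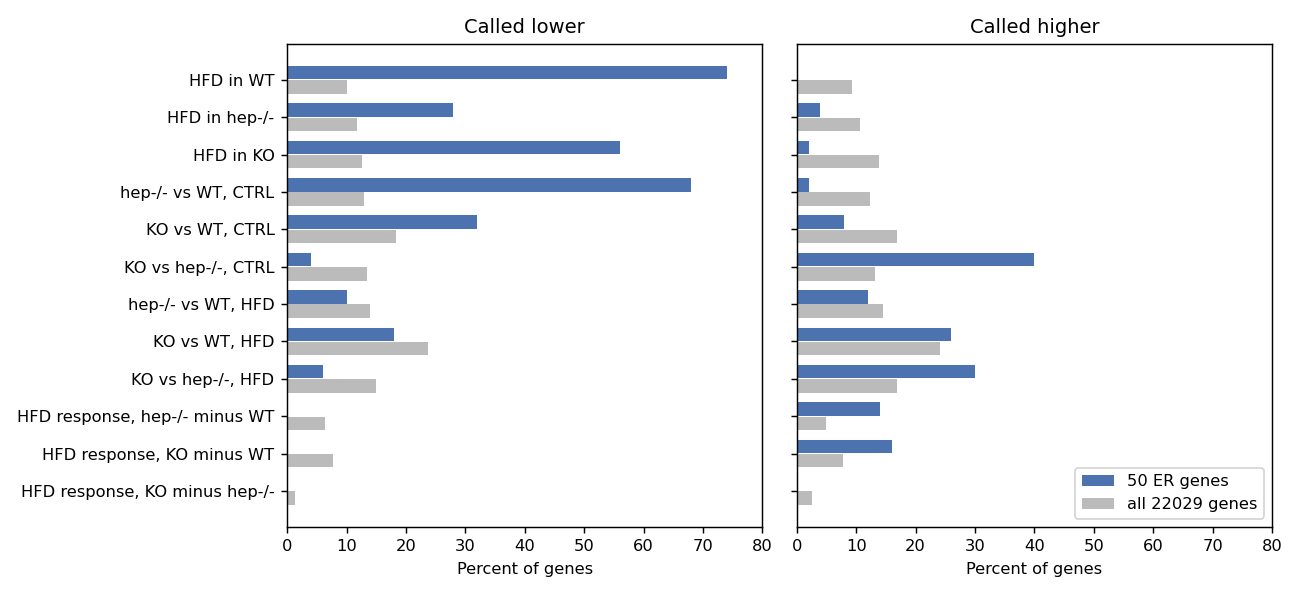
Percent of the 50 ER genes (blue bars) and of all 22029 genes (grey bars) that were called lower (left) or higher (right) in each comparison; hep-/- is Pparα hep-/- and KO is Pparα-/-. The blue bars reach 74% for the HFD response in WT mice and 68% for Pparα hep-/- against WT mice on CTRL diet.

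The median over the 50 genes, taken in each mouse against the mean of the WT CTRL mice, gives the same comparison by animal. It ran from -0.18 to 0.17 in WT CTRL mice, with a median of 0.03, and from -0.45 to -0.12 in WT HFD mice, with a median of -0.34. Pparα hep-/- CTRL mice ran from -0.33 to -0.16 (median -0.25) and Pparα hep-/- HFD mice from -0.54 to -0.22 (median -0.38). Pparα-/- mice had the widest CTRL group, from -0.28 to 0.22 (median -0.07), and lay between -0.37 and -0.21 on HFD (median -0.33). The WT CTRL and WT HFD mice thus overlapped in this measure at the edge, as did the WT CTRL and Pparα hep-/- CTRL mice, while all 3 HFD groups covered much the same range.

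**Figure D2:**
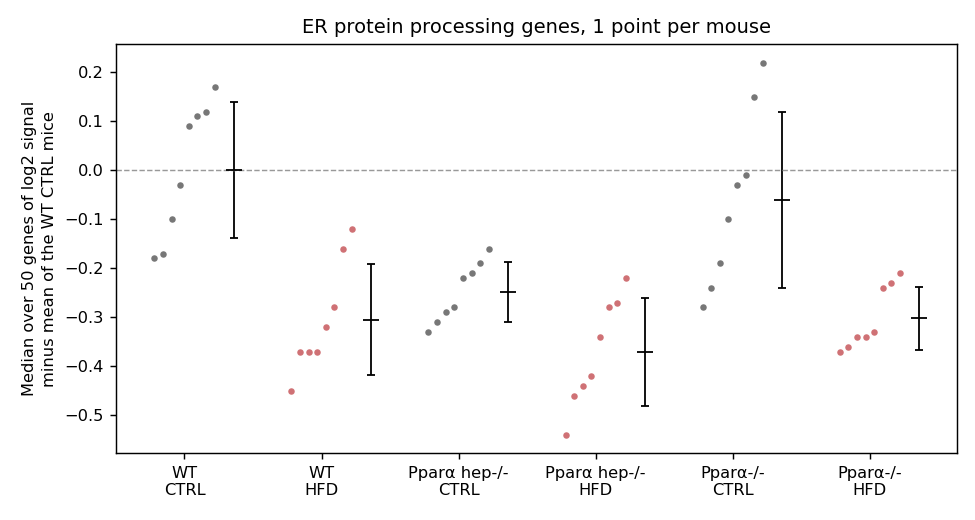
Each point is 1 mouse, and its height is the median over the 50 ER genes of the log2 signal minus the mean of the WT CTRL mice; bars to the right of each group are mean ± SD of 8 mice. The CTRL groups of WT and Pparα-/- mice reach above 0, whereas all mice of the other 4 groups lie below it.

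Of these roles, the ER chaperones had the lowest median change on HFD in WT mice. They hold nascent chains in a folding state and prevent their aggregation. In WT mice 9 of the 10 were lower on HFD and none was higher, with a median log2 fold change of -0.84. On HFD 5 of the 10 were lower in Pparα hep-/- mice and 8 in Pparα-/- mice, with medians of -0.34 and -0.46. Of all genes, 10.1%, 11.8% and 12.6% were lower on HFD in WT, Pparα hep-/- and Pparα-/- mice. The counts of the other roles on HFD stand beside the same shares. Hspa5 encodes BiP, the ER member of the Hsp70 family and the partner that keeps the stress sensors inactive. Its log2 signal ran from 15.07 (median 15.48) to 15.95 in WT CTRL mice and from 14.3 (median 14.73) to 14.97 in WT HFD mice, so that the groups did not overlap. In WT mice 2 of the 50 genes were lower on HFD without overlap, against 0.363% of all genes. In Pparα hep-/- mice 2 were, against 0.418%. The arrays were washed in 2 batches. The log2 fold change of Hspa5 was -0.94 ± 0.14 (SE, adjusted p = 3.6e-06), with -1.28 in one batch and -0.7 in the other taken alone. In Pparα hep-/- mice Hspa5 ran from 14.75 (median 14.98) to 15.2 on CTRL and from 14.45 (median 14.52) to 14.74 on HFD, again without overlap, a change of -0.41 ± 0.11 (adjusted p = 0.00873) that was not called without array weights (adjusted p = 0.0654). Pparα-/- mice overlapped, with 14.32 (median 14.91) to 15.75 on CTRL and 14.12 (median 14.49) to 14.79 on HFD (-0.45 ± 0.12, adjusted p = 0.00464). The other 2 tested probes of Hspa5 gave -1.01 and -1.03 in WT mice.

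Manf, a secreted ER protein induced by stress, had the largest decrease on HFD in WT mice. It ran from 11.52 (median 12.45) to 13 in WT CTRL mice and from 11.01 (median 11.39) to 11.85 in WT HFD mice, a change of -1.16 ± 0.18 (adjusted p = 9.85e-06). All 8 WT HFD mice lay below the mean of the WT CTRL mice. The change was -0.86 ± 0.15 in Pparα hep-/- mice and -0.66 ± 0.16 in Pparα-/- mice, past the threshold in each. Creld2, another secreted ER stress protein, ran from 12.88 (median 13.82) to 14.71 in WT CTRL mice and from 12.62 (median 12.81) to 13.44 in WT HFD mice (-1.09 ± 0.24, adjusted p = 0.000869). Its estimate in Pparα hep-/- mice, -0.4, did not pass. Sdf2l1, part of the BiP chaperone complex, changed by -1 ± 0.24 in WT mice (adjusted p = 0.00233) and by -0.72 ± 0.21 in Pparα-/- mice (adjusted p = 0.0109).

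Among the other chaperones, Hyou1, the large nucleotide exchange partner of BiP, changed by -0.87 ± 0.14 in WT mice on HFD. Dnajb9, a co-chaperone that recruits BiP to IRE1, changed by -0.82 ± 0.19 there, and its estimates of -0.18 and -0.25 in the 2 deletions did not pass. Hsp90b1, the ER form of Hsp90, was lower on HFD in every genotype, by -0.41, -0.21 and -0.38 in WT, Pparα hep-/- and Pparα-/- mice. Dnajc10 was called in no genotype on HFD.

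The CTRL groups of the 2 deletions separated in Sdf2l1 more than in any other chaperone. Sdf2l1 ran from 9.26 (median 10.05) to 10.43 in Pparα hep-/- CTRL mice and from 10.52 (median 11.12) to 11.93 in Pparα-/- CTRL mice, with no overlap (1.2 ± 0.22 higher in Pparα-/- mice, adjusted p = 3.14e-05). WT CTRL mice ran from 10.02 (median 11.17) to 11.57. Sdf2l1 was thus 1.19 lower in Pparα hep-/- than in WT mice (-1.19 ± 0.23, adjusted p = 0.000164), while the Pparα-/- estimate against WT was 0.01. Creld2 and Dnajb9 were lower than in WT CTRL mice in each deletion, by -1.17 and -0.83 for Creld2 and by -0.86 and -0.78 for Dnajb9. Hspa5 was lower in each by a similar size, -0.6 ± 0.13 and -0.61 ± 0.14. Between the deletions on CTRL diet, 5 of the 50 genes were higher in Pparα-/- mice without overlap and 0 were lower. Of all genes, 2.27% and 2.52% were so.

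Dnajc3, the co-chaperone P58IPK that restrains PERK, was lower in the germline deletion than in WT or Pparα hep-/- mice on each diet. It ran from 10.62 (median 11.46) to 11.72 in WT CTRL mice and from 10.04 (median 10.46) to 10.79 in Pparα-/- CTRL mice (-1.07 ± 0.12, adjusted p = 1.25e-09). On HFD it ran from 10.64 (median 11.06) to 11.38 in WT mice and from 9.74 (median 9.9) to 10.63 in Pparα-/- mice, without overlap (-1.12 ± 0.1, adjusted p = 4.34e-12). It was lower in Pparα-/- than in Pparα hep-/- mice as well, by -0.58 on CTRL and by -0.89 on HFD, opposite to the direction of most of the 50 genes in that comparison. Atf6 was the other gene called lower there on each diet. In Pparα-/- against WT mice on HFD, 2 of the 50 genes were lower and 1 higher without overlap. Of all genes, 3.82% and 3.39% were so.

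**Figure D3:**
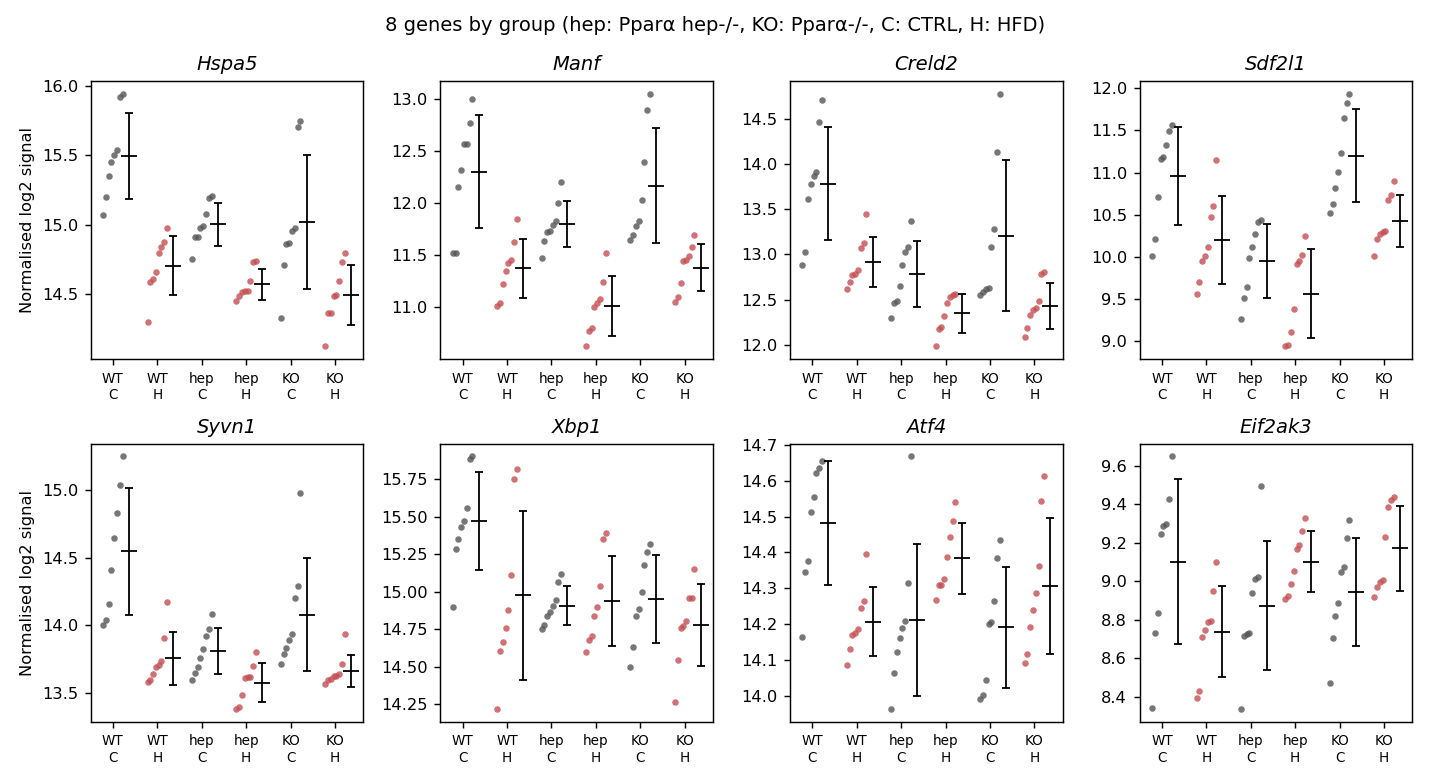
Normalised log2 signal of 8 genes in each group (hep, Pparα hep-/-; KO, Pparα-/-; C, CTRL; H, HFD); each point is 1 mouse and bars are mean ± SD of 8 mice, and the axes do not start at 0. Hspa5 in WT mice shows no overlap between CTRL and HFD, whereas the HFD mean of Atf4 and Eif2ak3 lies below the CTRL mean in WT and above it in Pparα hep-/- mice.

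Some members share a promoter sequence. The members were chosen by name as genes of ER protein processing and its stress response, so the share with a response element is not independent of that choice. ATF6 and XBP1 act through the ER stress response element (ERSE), CCAAT and CCACG separated by 9 bases. This motif was searched on both strands of the RefSeq promoters of GRCm38.p6, which hold 250 bases before and 50 bases after a gene's start, and 44 of the 50 genes had an entry. It was found in 9 of these 44 (20.5%), against 37 of 27025 genes with a promoter (0.137%). They were 4 chaperones, 3 glycoprotein folding genes and 2 degradation genes, and none of the sensors, translocon, oligosaccharyltransferase or COPII genes with an entry had a match. A match is a description and not a measured binding site. The stretches shown are all matches in the 9 genes, printed 5′ to 3′ on the strand of the gene with 15 bases on each side, and capitals mark the motif, which reads as its reverse complement where it lies on the other strand.
Hspa5, chr2:34772010-34772058, + strand: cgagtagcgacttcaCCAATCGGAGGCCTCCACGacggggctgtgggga
Hsp90b1, chr10:86705623-86705671, - strand: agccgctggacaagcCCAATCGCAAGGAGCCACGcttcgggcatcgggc
Hsp90b1, chr10:86705518-86705566, - strand: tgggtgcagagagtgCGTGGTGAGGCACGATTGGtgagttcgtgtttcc
Dnajc3, chr14:118937812-118937860, + strand: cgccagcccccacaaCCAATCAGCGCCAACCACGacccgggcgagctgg
Creld2, chr15:88819505-88819553, + strand: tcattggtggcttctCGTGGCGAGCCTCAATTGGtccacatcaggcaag
Calr, chr8:84847060-84847108, - strand: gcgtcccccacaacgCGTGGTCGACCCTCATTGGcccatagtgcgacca
Canx, chr11:50325785-50325833, - strand: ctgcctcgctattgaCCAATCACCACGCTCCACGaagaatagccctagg
Pdia6, chr12:17266476-17266524, + strand: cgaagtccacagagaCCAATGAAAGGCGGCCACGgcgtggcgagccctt
Derl3, chr10:75893227-75893275, + strand: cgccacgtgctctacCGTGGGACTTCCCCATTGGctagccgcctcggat
Syvn1, chr19:6046517-6046565, + strand: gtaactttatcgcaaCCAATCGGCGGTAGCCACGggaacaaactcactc

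The motifs lay between 25 bases (Syvn1) and 193 bases (the outer site of Hsp90b1) before the start. The site of Hspa5 lay 46 bases before it, and the 250 bases upstream of Hspa5, chr2:34771840-34772089 on the + strand, are given with the same capitals.
Hspa5 upstream: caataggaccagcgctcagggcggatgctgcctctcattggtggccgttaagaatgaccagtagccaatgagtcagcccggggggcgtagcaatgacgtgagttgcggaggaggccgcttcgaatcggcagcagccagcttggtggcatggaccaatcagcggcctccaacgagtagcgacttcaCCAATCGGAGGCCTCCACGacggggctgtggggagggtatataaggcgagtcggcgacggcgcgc
The other form of the element, ERSE-II, ATTGG and CCACG separated by 1 base, was in the promoters of Dnajb11 and Herpud1, 2 of 44 against 12 of 27025 genes (4.55% and 0.0444%). The XBP1-type core TGACGTGG was in those of Vcp and Sec24d, also 4.55%, against 0.714% of all genes. TGATG and AA separated by 1 base, the letters of the element bound by ATF4 with CHOP, were in 4.55% of the members and 4.51% of all genes. No match of a motif overlapped a match of another in these promoters.

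The 11 genes with either ERSE form had a median log2 fold change of -0.52 on HFD in WT mice, with 7 of 11 called lower, and the 33 genes with an entry and neither form had a median of -0.32, with 25 of 33 called lower. Against WT mice on CTRL diet, Pparα hep-/- mice gave medians of -0.6 with 10 of 11 called lower and -0.28 with 21 of 33 called lower. Of the 28 other genes with the ERSE, 12 had a tested probe, and on HFD in WT mice 2 of those were lower, Hnrnpa3 (-0.39) and Pan2 (-0.18), and 1 was higher, Acnat2 (1.52); these were named after their values were seen.

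The glycoprotein folding and disulfide exchange genes had smaller median changes on HFD than the chaperones in each genotype. That difference was not tested. Calreticulin (Calr) and calnexin (Canx) hold glycoproteins for folding, Uggt1 returns misfolded ones to them, and the Pdia genes and P4hb form disulfide bonds. In WT mice 3 of the 7 were lower on HFD, with a median of -0.3. Uggt1 changed by -0.73 in WT mice, and by -0.38 and -0.56 in the hepatocyte and the germline deletion, past the threshold in each. Pdia6 ran from 15.14 (median 15.47) to 15.73 in WT CTRL mice and from 14.75 (median 15.06) to 15.19 in WT HFD mice (-0.52 ± 0.11, adjusted p = 0.000362). Calr and Pdia4 gave estimates of -0.22 and -0.32 that did not pass, and Pdia4 passed in Pparα-/- mice (-0.41 ± 0.11, adjusted p = 0.0044).

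On CTRL diet this group was called against WT mice in the hepatocyte deletion alone. All but P4hb, 6 of the 7 genes, were lower in Pparα hep-/- than in WT mice (all genes, 12.9%), and none passed in Pparα-/- against WT mice. The median of Pparα-/- against WT mice was -0.22 and 0.06 within the 2 wash batches. All 7 were higher in Pparα-/- than in Pparα hep-/- mice (all genes, 13.2%), with medians of 0.19 and 0.4 within the batches. Within the first batch alone, 3 of the 50 genes were called higher in that comparison. Pdia6 was the largest, with 14.66 (median 14.97) to 15.32 in Pparα hep-/- mice and 15.02 (median 15.47) to 15.82 in Pparα-/- mice (0.5 ± 0.1, adjusted p = 6.84e-05), and these groups overlapped. Calr changed by 0.37 ± 0.11 (adjusted p = 0.00977) and Pdia4 by 0.32 ± 0.11 (adjusted p = 0.028) in that comparison.

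Genes of ER-associated degradation were mixed. Edem1, Edem2 and Edem3 trim mannose from proteins destined for disposal, Syvn1 is the ubiquitin ligase HRD1, Sel1l its adaptor, Os9 a lectin that delivers substrates, the Derl genes belong to the export channel and Vcp is the ATPase that extracts them. In WT mice 5 of the 11 were lower on HFD, and none was higher. Syvn1 ran from 14 (median 14.53) to 15.25 in WT CTRL mice and from 13.58 (median 13.7) to 14.18 in WT HFD mice (-0.93 ± 0.14, adjusted p = 4.07e-06). In the deletions its CTRL mice were already lower, with 13.6 (median 13.79) to 14.09 in Pparα hep-/- and 13.72 (median 13.91) to 14.98 in Pparα-/- mice. The differences from WT CTRL mice were -0.85 ± 0.13 (adjusted p = 4.28e-06) and -0.59 ± 0.14 (adjusted p = 0.000615). Herpud1, a ubiquitin-like ER membrane protein and a hallmark of the response, was called in none of the 9 pairwise comparisons, and its estimates lay between -0.23 and 0.24.

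Sel1l and Os9 differed by genotype on each diet. Sel1l ran from 13.21 (median 13.3) to 13.54 in WT HFD mice and from 12.63 (median 12.77) to 13 in Pparα-/- HFD mice, without overlap (-0.55 ± 0.08, adjusted p = 1.08e-07), and it was also lower on CTRL diet (-0.56 ± 0.09). Os9 went the other way, 0.39 ± 0.05 higher in Pparα-/- than in WT mice on HFD (adjusted p = 1.02e-08) and 0.23 ± 0.06 higher on CTRL. Lower without overlap in Pparα-/- than in WT mice on HFD were 2 of the 50 genes, Dnajc3 and Sel1l, against 3.82% of all genes. The probes of Vcp disagreed. In Pparα-/- against Pparα hep-/- mice on HFD the brightest probe gave 0.21 and 2 of the 3 dimmer probes gave -0.15 and -0.23, all past the threshold.

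Derl3 spread most between mice and between genotypes. It ran from 8.31 (median 10.21) to 11.16 in WT CTRL mice, from 7.24 (median 8.5) to 9.98 in Pparα hep-/- CTRL mice and from 10.18 (median 11.75) to 12.22 in Pparα-/- CTRL mice. Pparα-/- and Pparα hep-/- CTRL mice did not overlap, and the difference of 2.62 ± 0.39 (adjusted p = 8.54e-07) was the largest of the 50 genes in any of the 9 pairwise comparisons. On HFD Derl3 was lower in Pparα-/- mice (-1.51 ± 0.38, adjusted p = 0.00305), while the estimates of -1.08 in WT and -0.14 in Pparα hep-/- mice did not pass. Derl3 is abundant in plasma cells, and Jchain, a plasma cell gene, was also higher in Pparα-/- than in Pparα hep-/- CTRL mice (1.5 ± 0.36, adjusted p = 0.00131). It was the only called gene of the 6 tested plasma and B cell markers, whose summed signal ran from 815 (median 948) to 4130 in Pparα hep-/- CTRL and from 1130 (median 1780) to 2380 in Pparα-/- CTRL mice. The value of 4130 came from the array of lowest weight, and the next was 1470. Their part in the result was not tested.

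Of the sensors and transcription factors, Ern1 encodes IRE1, which splices Xbp1 mRNA, and Eif2ak3 encodes PERK, which slows translation and lets Atf4 be translated. Ddit3 encodes CHOP, Trib3 a pseudokinase induced by ATF4 and CHOP, and Ppp1r15a the phosphatase subunit GADD34 that restores translation. In WT mice 6 of the 8 were lower on HFD and none was higher (median -0.35), and the calls of Atf6, Eif2ak3 and Ppp1r15a were lost in 9, 4 and 3 of 15 alternatives. None was lower in either deletion, while 2 were higher in Pparα hep-/- mice and 1 in Pparα-/- mice, with medians of 0.09 and 0.08. These are 25% and 12.5% of the 8 genes, against 10.7% and 13.8% of all genes called higher. The calls in Pparα hep-/- mice, Atf4 and Eif2ak3, were both lost without array weights and without the filter on dim probes. Array signal measures total mRNA, so neither the splicing of Xbp1 nor the activation of a sensor was measured.

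Xbp1 ran from 14.9 (median 15.45) to 15.9 in WT CTRL mice and from 14.22 (median 14.82) to 15.82 in WT HFD mice, where 6 of 8 mice lay below the mean of the CTRL mice (-0.78 ± 0.17, adjusted p = 0.000637). Its HFD estimates were -0.03 in Pparα hep-/- and -0.16 in Pparα-/- mice. Atf4 ran from 14.16 (median 14.53) to 14.65 in WT CTRL mice and from 14.09 (median 14.18) to 14.4 in WT HFD mice (-0.34 ± 0.08, adjusted p = 0.00272). In Pparα hep-/- mice Atf4 went from 13.96 (median 14.18) to 14.67 on CTRL and from 14.27 (median 14.36) to 14.54 on HFD, and rose by 0.23 ± 0.07 (adjusted p = 0.0167). The diets overlapped in each genotype. The higher call in Pparα hep-/- mice was lost in 6 of 15 alternatives, with 0.16 (adjusted p = 0.325) without array weights and 0.07 (adjusted p = 0.512) with the processed signal. The other 2 probes of Xbp1 gave -0.82 and -0.76 on HFD in WT mice, and the other probe of Atf4 gave -0.29, all past the threshold.

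Eif2ak3 gave the same picture with its brightest probe. It ran from 8.34 (median 9.27) to 9.65 in WT CTRL mice and from 8.39 (median 8.77) to 9.1 in WT HFD mice (-0.51 ± 0.15, adjusted p = 0.0103). In Pparα hep-/- mice it ran from 8.33 (median 8.83) to 9.5 on CTRL and from 8.91 (median 9.11) to 9.33 on HFD (0.34 ± 0.12, adjusted p = 0.0442), a call lost in 9 of 15 alternatives. Its dimmer probe did not show this, with 0.02 in WT and -0.09 in Pparα hep-/- mice, and in Pparα hep-/- against WT mice on CTRL diet the 2 probes were called in opposite directions (-0.4 and 0.29). Ddit3 rose on HFD in Pparα-/- mice. It ran from 7.35 (median 7.62) to 8.04 on CTRL and from 7.49 (median 8.18) to 8.53 on HFD, with overlap (0.47 ± 0.12, adjusted p = 0.00222).

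On CTRL diet most of this group was lower in the deletions, and Trib3 was higher. Of the 8 genes, 6 were lower than in WT mice in Pparα hep-/- and 6 in Pparα-/- mice, and Xbp1, Atf4, Ern1, Ddit3 and Ppp1r15a were lower in each. Atf6 was not called in Pparα hep-/- nor Eif2ak3 in Pparα-/- mice. Trib3 ran from 8.77 (median 9.39) to 10.72 in WT CTRL mice, from 9.99 (median 10.31) to 11.32 in Pparα hep-/- CTRL mice and from 9.79 (median 10.38) to 10.69 in Pparα-/- CTRL mice. It was 0.62 ± 0.22 higher in Pparα hep-/- (adjusted p = 0.0389) and 0.6 ± 0.24 higher in Pparα-/- mice (adjusted p = 0.0416), and on HFD by 0.62 ± 0.2 and 0.82 ± 0.2. Both CTRL calls of Trib3 were lost without array weights (adjusted p = 0.0609 and 0.0722). Atf6 was lower in Pparα-/- than in WT mice on CTRL (-0.55 ± 0.1, adjusted p = 9.72e-06) and on HFD (-0.27 ± 0.08, adjusted p = 0.00699). It was also lower in Pparα-/- than in Pparα hep-/- mice, by -0.39 ± 0.09 on CTRL (adjusted p = 0.00041) and by -0.37 ± 0.08 on HFD (adjusted p = 0.000195).

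The test of the difference between HFD responses was run for all genes. The response of Pparα hep-/- mice was higher than that of WT mice for 7 of the 50 genes and lower for 0 (all genes, 4.86% higher and 6.3% lower). These were Hspa5 (0.53 ± 0.18, adjusted p = 0.0477), Syvn1 (0.7 ± 0.18, adjusted p = 0.00922), Xbp1 (0.75 ± 0.22, adjusted p = 0.0212), Atf4 (0.56 ± 0.11, adjusted p = 0.000796), Eif2ak3 (0.85 ± 0.19, adjusted p = 0.00359), Ssr3 and Sec24d. The response of Pparα-/- mice was higher than that of WT mice for 8 genes and lower for 0 (all genes, 7.75% higher and 7.77% lower), with Syvn1, Xbp1, Atf4, Eif2ak3, Ddit3 (0.73 ± 0.17, adjusted p = 0.00359), Ppp1r15a, Rpn2 and Sec24d. The 2 deletions did not differ from each other in the HFD response of any of the 50 genes at this threshold (all genes, 2.55% higher and 1.38% lower).

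The number of such calls depended on the weighting of the arrays. Without array weights 0 genes passed for Pparα hep-/- and 2 for Pparα-/- mice, Atf4 (adjusted p = 0.0402) and Ddit3 (adjusted p = 0.0122). When arrays of a single wash batch were fitted, 4 and 3 genes passed in one batch and none in the other. The response minus that of WT mice was estimated above 0 for 48 of 50 genes in Pparα hep-/- and 42 of 50 in Pparα-/- mice, and both comparisons subtract the same WT response. The dimmer probes did not all pass: those of Hspa5 (0.46 and 0.51) and Xbp1 (0.55 and 0.46) missed the threshold in Pparα hep-/- mice, while that of Atf4 passed in each deletion. Of 51 dimmer probes, 6 in Pparα hep-/- and 5 in Pparα-/- mice missed the threshold where the brightest passed. Conversely, 4 and 3 passed where the brightest did not.

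**Figure D4:**
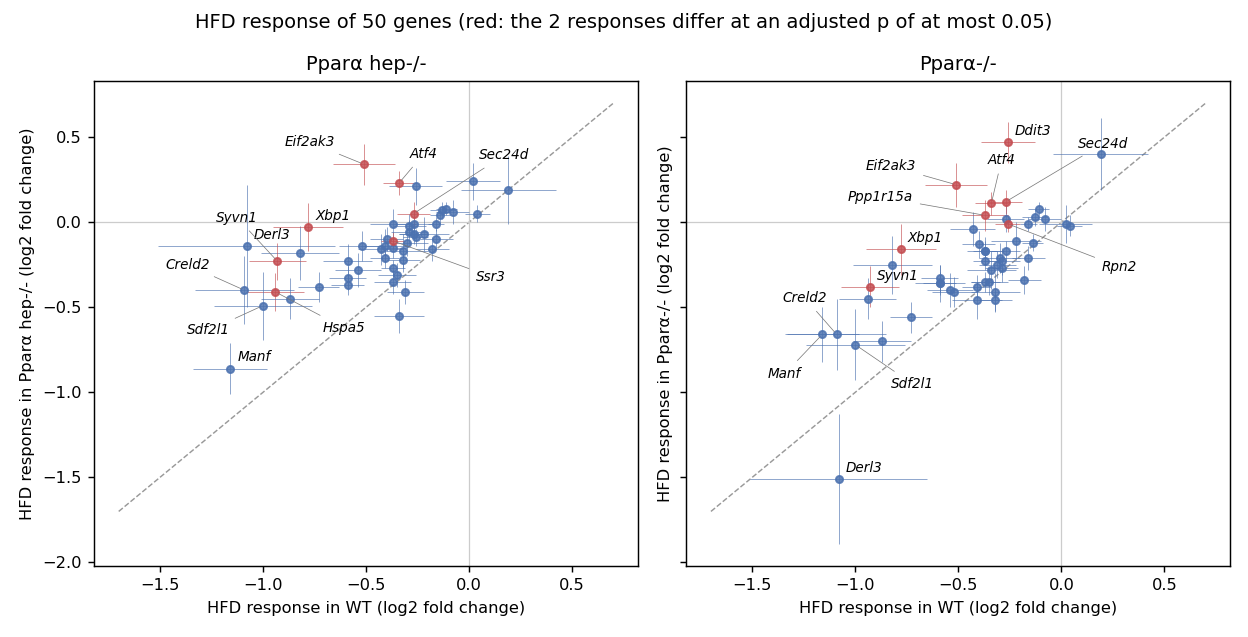
HFD response (log2 fold change, HFD against CTRL) of the 50 genes in WT mice (horizontal) against that in Pparα hep-/- mice (left) and Pparα-/- mice (right), with bars of 1 SE and a dashed line of equal response; red marks genes called as differing from WT in the response. Most genes lie above the dashed line, and Eif2ak3 and Atf4 lie above 0 in Pparα hep-/- mice.

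The translocon genes moved together with small changes on HFD. Sec61a1, Sec61b and Sec61g form the channel through which chains enter the ER, and Ssr1 to Ssr4 the translocon-associated protein complex. All 7 were lower on HFD in WT and in Pparα-/- mice, and 2 of 7 in Pparα hep-/- mice, with medians of -0.37, -0.23 and -0.11. Of all genes, 10.1%, 12.6% and 11.8% were lower in these genotypes. The low count in Pparα hep-/- mice depended on the scaling. With the processed signal scaled to the 75th percentile, Sec61a1, Sec61b, Sec61g, Ssr2, Ssr3 and Ssr4 were lower on HFD in every genotype. Sec61a1 ran from 14.06 (median 14.19) to 14.36 in WT CTRL mice and from 13.43 (median 13.6) to 14.16 in WT HFD mice (-0.59 ± 0.09, adjusted p = 5.8e-06). Ssr3 ran from 13.5 (median 13.58) to 13.75 and from 13.1 (median 13.21) to 13.38 in those groups, without overlap (-0.37 ± 0.06, adjusted p = 5.17e-05). On CTRL diet 5 of 7 were higher in Pparα-/- than in Pparα hep-/- mice (all genes, 13.2%). Ssr4 did not overlap there, with 13.86 (median 14.13) to 14.39 in Pparα hep-/- and 14.43 (median 14.5) to 14.82 in Pparα-/- mice (0.47 ± 0.08, adjusted p = 5.81e-06), and Ssr1 was 0.39 ± 0.08 higher. The adjusted p of this Ssr1 difference in limma depended strongly on the processing, from 3.88e-21 to 0.0125 over 15 alternatives.

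The oligosaccharyltransferase transfers the sugar chain to the entering protein. All 5 subunits were lower on HFD in WT mice, 3 in Pparα hep-/- mice and 2 in Pparα-/- mice. Stt3a, a catalytic subunit, ran from 8.65 (median 8.88) to 9 in WT CTRL mice and from 8.3 (median 8.58) to 8.83 in WT HFD mice (-0.31 ± 0.09, adjusted p = 0.00984), and its change in Pparα hep-/- mice was -0.41 ± 0.07. On HFD 4 of the 5 were higher in Pparα-/- than in WT mice, against 26% of the 50 genes and 24.1% of all genes. Among them was Rpn2 (0.34 ± 0.05, adjusted p = 2.23e-07), while Rpn1 was lower (-0.18). Both COPII genes, Sec23b (-0.59) and Sec24d (-0.27), were lower on HFD in WT mice. Sec24d was higher in each deletion than in WT mice on HFD, by 0.25 ± 0.07 and 0.27 ± 0.07.

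**Figure D5:**
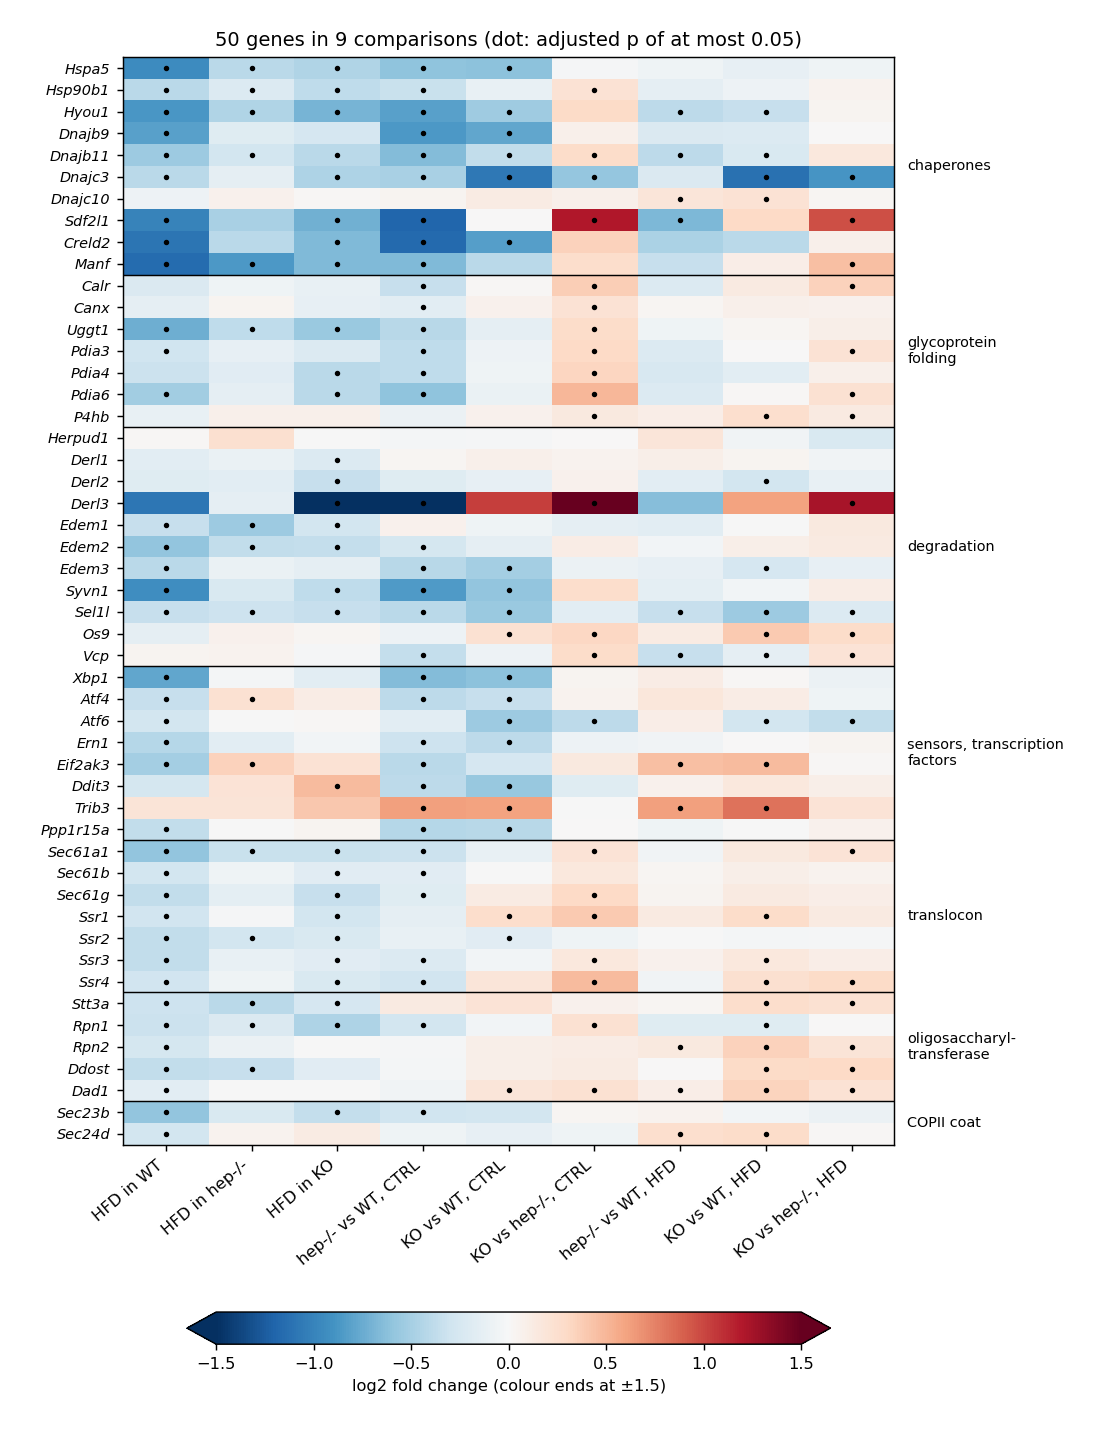
Log2 fold change of the 50 genes (rows, by role) in 9 pairwise comparisons (columns; hep-/-, Pparα hep-/-; KO, Pparα-/-), from blue (lower in the first-named) to red (higher), with dots for called genes. The first column is blue for 47 of the 50 genes, and the sixth, Pparα-/- against Pparα hep-/- mice on CTRL diet, is mainly red.

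The remaining genes of the pathway, in lists written by function, had more genes called lower than higher on HFD in each genotype. Of 108 with a tested probe, 45 were lower and 8 higher on HFD in WT mice (41.7% and 7.41%, against 10.1% and 9.32% of all genes), with a median of -0.15. In Pparα hep-/- mice 27 were lower and 8 higher (25% and 7.41%, against 11.8% and 10.7%), and in Pparα-/- mice 37 and 14 (34.3% and 13%, against 12.6% and 13.8%). Other folding factors had 15 of 26 lower in WT mice, led by Ero1lb (-0.78), an oxidase that recharges the disulfide isomerases, and Hspa13 (-0.72). Translocation and signal peptide genes had 10 of 16 lower, led by the signal peptidase subunit Spcs2 (-0.62). Other glycosylation genes had 5 of 7 lower, led by Ostc (-0.5), and 1 higher, Tusc3 (0.24). Other degradation genes had 6 of 19 lower, led by Vimp (-0.58), and 3 higher, Svip (0.4), Ubxn8 (0.21) and Ngly1 (0.19). COPII and ER exit genes had 6 of 13 lower, led by the cargo receptor Surf4 (-0.33), and 1 higher, Sar1b (0.25). In Pparα-/- mice Ero1lb was far below WT mice on either diet, by -2.32 ± 0.19 on CTRL (adjusted p = 5.37e-14) and -2.14 ± 0.16 on HFD.

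Genes linked to ATF4 form the amino acid and stress arm of the response. Of 16 tested, 1 was lower and 1 higher on HFD in WT mice, Cebpg (-0.49) and Shmt2 (0.32), or 6.25% each way, below the 10.1% and 9.32% of all genes, and no difference from the chaperones was tested. On HFD 3 were higher in Pparα hep-/- mice, Chac1 (1.33 ± 0.3), Atf3 (1.31 ± 0.28) and Nupr1 (0.84 ± 0.26), and none was lower (18.8% higher, against 10.7% of all genes). In Pparα-/- mice 6 were higher, led by Atf3 (1.54 ± 0.29), and 1 lower, Sesn2 (-0.23), or 37.5% and 6.25% against 13.8% and 12.6% of all genes. The difference of these responses from WT mice was called higher for 6 of 16 and lower for 1 of 16 in each deletion (all genes, 4.86% higher and 6.3% lower in Pparα hep-/-, and 7.75% and 7.77% in Pparα-/- mice), with Nupr1 at 1.38 and 1.61 and Atf3 at 1.34 and 1.57. Within the 2 wash batches the median difference was 0.86 and 0.26 in Pparα hep-/- mice, and 0.66 and 0.09 in Pparα-/- mice. The median HFD response of WT mice was -0.41 and 0.08 within these batches. Of 11 response regulators 2 were lower on HFD in WT mice, Creb3l2 (-0.74) and Wfs1 (-0.56), and 2 higher, Nfe2l1 (0.27) and Tmbim6 (0.16). Creb3l2, an ATF6-like factor, was also lower in Pparα hep-/- than in WT CTRL mice (-0.81).

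Markers of other cells were read beside these results. On HFD in WT mice, the response with the most ER genes lower, no marker was called of the 6 tested for plasma and B cells, 6 for pancreatic acinar cells, 7 for macrophages, 6 for neutrophils, 7 for stellate cells and fibroblasts, 5 for endothelium and 5 for bile ducts. Of the 6 hepatocyte markers 1 was lower, Cps1 (-0.88), a urea cycle enzyme, and of the 2 tested adipocyte markers Cfd was higher (5.79). The adipocyte markers Adipoq and Plin1 did not pass the filter on dim probes. The WT HFD mice nevertheless spread widely. The summed neutrophil signal reached 33600 in 1 mouse and 12600 in the next, with a median of 1800, against a highest WT CTRL value of 3300. Macrophages reached 51700 in the same mouse, with a median of 18600, against a highest WT CTRL value of 24200. In another WT HFD mouse the stellate cell signal reached 106000, with a median of 21000, against WT CTRL values of up to 81300 in the mouse of weight 0.208 and 44500 in the next. These 2 WT HFD mice had array weights of 0.343 and 0.372. With the 5 arrays of weight under 0.5 left out and no array weights, 33 ER genes were lower on HFD in WT mice. The plasma and B cell signal reached 5970 in a WT HFD mouse of array weight 1.23, kept in that fit, with 1250 in the next and 1770 as the highest WT CTRL value. The part of these markers in the result was not tested. In Pparα hep-/- against WT CTRL mice, 3 of the 6 hepatocyte markers were lower (Apoa1, -0.25; Cps1, -0.56; Hnf4a, -0.36). In the same comparison 3 of 5 endothelial markers, 1 of 7 macrophage, 1 of 6 neutrophil and 1 of 7 stellate cell markers were higher and 1 of 6 acinar markers was lower, and their part was not tested either. Of all genes, 12.3% were called higher and 12.9% lower there. In Pparα-/- against WT CTRL mice these shares were 16.9% and 18.4%. Against WT CTRL mice, Pparα-/- CTRL mice had 3 of 6 hepatocyte markers lower (Apoa1, -0.51; Cps1, -0.62; Hnf4a, -0.43), with 2 of 7 macrophage, 2 of 5 endothelial, 1 of 6 plasma and B cell and 1 of 6 acinar markers higher and 1 neutrophil, 1 bile duct and 1 adipocyte marker lower.

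The genotype comparisons on HFD came with more marker calls, and also with more calls among all genes. Of all genes, 14.6% were higher and 14% lower in Pparα hep-/- against WT mice on HFD. In Pparα-/- against WT mice on HFD these shares were 24.1% and 23.7%. Between Pparα hep-/- and WT mice on HFD, 6 of 7 stellate cell (median 1.01), 4 of 7 macrophage (median 0.8), 4 of 5 endothelial, 1 of 6 neutrophil and 1 of 5 bile duct markers were higher in Pparα hep-/- mice, and 2 of 6 acinar, 1 of 6 hepatocyte and 1 of 2 adipocyte markers (Cfd, -6.93) were lower. In Pparα-/- against WT mice on HFD, 7 of 7 stellate cell (median 1.1), 5 of 7 macrophage (median 1.2), 4 of 5 endothelial, 3 of 6 neutrophil, 2 of 6 plasma and B cell, 2 of 6 acinar and 1 of 5 bile duct markers were higher. Lower there were 3 of 6 hepatocyte (Apoa1, -0.18; Cps1, -0.46; Hnf4a, -0.29), 2 of 6 acinar, 1 macrophage and 1 neutrophil marker and Cfd (-7.87). The part of these markers in the ER gene counts of the genotype comparisons was not tested.

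On HFD in Pparα-/- mice, 7 of 7 stellate cell and fibroblast markers and 5 of 7 macrophage markers were higher and 1 macrophage marker was lower. The summed stellate cell signal ran from 15800 to 65600 on CTRL and from 42400 to 72700 on HFD, and that of macrophages from 15300 to 29600 and from 24000 to 45100. Of the other markers in Pparα-/- mice, 2 of 5 endothelial and 2 of 6 neutrophil markers were higher, Apoa1 was higher (0.23), and Cps1 (-0.71) and 2 of 6 acinar markers, Cela1 (-0.67) and Ctrb1 (-0.51), were lower. On HFD 5 of 7 stellate cell, 2 of 7 macrophage, 2 of 5 endothelial and 1 of 5 bile duct markers were higher in Pparα hep-/- mice. Lower there were Cps1 (-0.53) and 2 of 6 acinar markers, Cela2a (-1.2) and Ctrb1 (-0.6), the direction of most called ER genes. The summed acinar signal ran from 8360 to 22100 on CTRL and from 10900 to 25600 on HFD in Pparα hep-/- mice, and from 12700 to 26600 and from 11600 to 16500 in Pparα-/- mice. Of all genes, 13.8% were higher and 12.6% lower on HFD in Pparα-/- mice, and 10.7% and 11.8% in Pparα hep-/- mice. The part of these cells in the HFD responses of the deletions was not tested.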

How the data were processed

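Total liver RNA of 48 mice was measured on 1-colour Agilent arrays. Per the file headers, the deposited intensities are median pixel values from Feature Extraction 10.10.1.1, neither background subtracted nor normalised; the processed intensities in the same deposited files are background subtracted and detrended. The authors' deposited log2 table had been filtered and adjusted for the bath in which slides were washed before quantile normalisation. Here log2 intensities were averaged per probe without outlier-marked spots, quantile normalised, and kept for the 33323 probes that passed background in 4 or more of the 8 arrays of any group. limma 3.58.1 in R 4.3.3 was fitted to 6 group means, wash batch (2 levels, 6 slides) and array weights, with Benjamini-Hochberg adjustment over all probes within each contrast. The 195 missing values were left out. The fit was tested on simulated data. The mice are the replicates and their number limits the precision. No column of the authors' own comparisons was used.

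Members and lists were chosen with earlier results of these data known. Named genes are 16 hallmarks of the response, the 5 largest called changes in each pairwise comparison, genes called in a difference of responses and genes whose probes disagree; other values were chosen after they were seen. Promoters are RefSeq's. Alternatives were no array weights, other background correction, scaling, filters, thresholds and probe averaging, the authors' table, batch and replicate terms, and leaving out arrays.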

Additional observations from a re-analysis of the deposited data

Results flagged for a closer look

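Among 192 sets of 8 mice (32 named genes in 6 groups), 11 held a mouse whose gap to its nearest neighbour was too large a part of the range of the group, and chance alone gives about 1 in 20 such sets. The mice concerned are given by their log2 signal and the nearest other value. Low mice were found for Hyou1 in WT HFD mice (6.37, nearest 6.89), Dnajc3 in WT CTRL mice (10.62, nearest 11.28), Herpud1 in Pparα hep-/- CTRL mice (14.25, nearest 14.55) and Ssr3 in Pparα-/- CTRL mice (13.28, nearest 13.5). High mice were found for Edem1 (12.24, nearest 11.83) and Syvn1 (14.98, nearest 14.29) in Pparα-/- CTRL mice, for Syvn1 (13.94, nearest 13.72), Dnajc3 (10.63, nearest 10.05) and Trib3 (11.32, nearest 10.75) in Pparα-/- HFD mice, for Ddit3 in Pparα hep-/- CTRL mice (8.67, nearest 7.96) and for Rpn2 in Pparα hep-/- HFD mice (14.55, nearest 14.36). The Hyou1 and Dnajc3 values belong to arrays of low weight, replicate 6 of WT HFD (0.372) and of WT CTRL (0.208), and both the Herpud1 and Ddit3 values to replicate 1 of Pparα hep-/- CTRL, the array of lowest weight (0.189).

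Differences between genotypes in the HFD response were called for 10 genes by the test of the difference itself. Against WT mice, Pparα hep-/- mice gave 0.53 for Hspa5, 0.7 for Syvn1, 0.75 for Xbp1, 0.56 for Atf4, 0.85 for Eif2ak3, 0.26 for Ssr3 and 0.32 for Sec24d, with adjusted p between 0.000796 and 0.0477. Pparα-/- mice gave 0.55 for Syvn1, 0.63 for Xbp1, 0.45 for Atf4, 0.73 for Eif2ak3, 0.73 for Ddit3, 0.41 for Ppp1r15a, 0.25 for Rpn2 and 0.39 for Sec24d, with adjusted p between 0.00359 and 0.0487. The dimmer probe of Atf4 also passed in each (0.38 and 0.43), while that of Eif2ak3 did not (-0.11 and 0.2).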

How the results depend on the processing

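The median log2 fold change of the 50 genes kept its sign in all 15 alternatives, except on HFD in Pparα hep-/- against WT mice (-0.15 to 0.01) and in Pparα-/- against WT mice (-0.09 to 0.09). For Pparα-/- against WT mice on CTRL it ranged from -0.23 to -0.01. On HFD in WT mice it lay between -0.42 and -0.29. The counts of called genes moved more. Without array weights they were 8 for HFD in Pparα hep-/- mice, 23 for Pparα hep-/- against WT on CTRL and 4 on HFD, 9 for Pparα-/- against Pparα hep-/- on HFD, and 0 and 2 for the responses of Pparα hep-/- and Pparα-/- minus WT. In the order of the 9 pairwise comparisons (HFD in WT, Pparα hep-/- and Pparα-/-, then the genotypes on CTRL and on HFD), the counts that moved within the first wash batch were 5 and 13 for the deletions on HFD, 17 and 5 for Pparα hep-/- against WT and Pparα-/- against Pparα hep-/- on CTRL, and 3, 11 and 8 on HFD, with 4 and 3 for the responses. Within the other batch they were 8, 5 and 18, then 13 and 6 against WT on CTRL, 5, 14 and 11 on HFD, and 0 and 0 for the responses; each batch holds fewer mice. With the processed signal at the 75th percentile they were 27 for HFD in Pparα hep-/- mice, 14 for Pparα-/- against Pparα hep-/- on CTRL, 19 for Pparα hep-/- against WT on HFD, and 4 and 3 for the responses. With no filter on dim probes they were 5 for Pparα hep-/- against WT on HFD, and 2 and 4 for the responses. With no wash term the Pparα-/- response gave 4. At an adjusted p of at most 0.01 they were 19 for HFD in Pparα-/- mice, 14 for Pparα-/- against Pparα hep-/- on CTRL, 5 for Pparα hep-/- against WT on HFD, and 3 and 3 for the responses. Without the 5 arrays of weight under 0.5 and without weights, chosen after seeing the data, they were 5 and 10 for Pparα hep-/- against WT and Pparα-/- against Pparα hep-/- on HFD, and 3 and 4 for the responses. The cause was not tested.

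The residuals gave no sign that the replicate numbers pair the mice. Between groups, mice with the same number correlated between -0.449 and 0.694 (median 0.0223). Those with different numbers correlated between -0.527 and 0.754 (median -0.0023). With the replicate number as a block, 35 genes were called for HFD in WT mice, and 4 and 5 for the responses of Pparα hep-/- and Pparα-/- minus WT.

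Ssr3 in Pparα-/- against WT mice on HFD became -0.01 with the processed signal and 0 with the mean of all probes, and Rpn2 in Pparα hep-/- against WT mice on HFD became -0.02 with the processed signal. Of 160 called values of named genes, 30 passed in every alternative.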
